A study of Drosophila melanogaster with 2 samples.

Results

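The genes described here encode Polycomb proteins, trithorax proteins that methylate or demethylate histones, the BRM remodelling complexes, other ATP-dependent remodellers and the histone demethylase Kdm3. They were taken as a list of 43 symbols. Of these, 42 were in the annotation and were used, out of 13945 protein-coding genes on the 6 chromosome arms. The symbol calypso was absent and was dropped. The question asked of each gene was whether Sry-delta, a zinc finger transcription factor of Drosophila melanogaster, was found at its start site. Sry-delta was mapped by chromatin immunoprecipitation followed by sequencing (ChIP-seq) in whole embryos of mixed sex aged 0 to 24 h, from a stable transgenic line in which GFP is fused to the C-terminus of Sry-delta. Chromatin was sonicated and precipitated with an antibody against GFP. There was 1 group of 2 libraries, labelled biological replicates 3 and 4 and drawn from 1 donor line. All libraries carried the tagged protein, and no input, mock or untagged library was analysed here, so no contrast of conditions was possible and no test was run. Whole embryos mix tissues and stages, so a strong peak in few cells and a weak peak in many cannot be told apart.

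Polycomb and trithorax proteins keep developmental genes, among them the Hox genes, off or on through cell divisions. Polycomb repressive complexes mark and compact repressed chromatin by methylating histone H3 and by placing ubiquitin on histone H2A. Trithorax proteins oppose them by methylating H3 at active genes or by moving nucleosomes, and Polycomb mutants in the fly transform one segment into another. Remodellers of the BRM, ISWI, CHD and Mi-2 types use ATP to slide, eject or space nucleosomes.

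Sequences under strong peaks of these genes are shown first, because several of them carry repeated copies of 1 short motif. They surround the summits of 8 members with high signals, leave out Bap55 and Iswi, whose signals were as high, reach at most 60 bases to each side of the summit, and are cut so that no more than 30 bases of an annotated untranslated region are included. All are read from the Release 6 genome (dm6) on the strand of the gene. They lie at chr3R:9515919-9516036 for Kdm3 on the plus strand, chr2L:250866-250986 for kis on the minus strand, chrX:13159550-13159633 for Bap60 on the minus strand, chr3R:15225444-15225564 for Caf1-55 on the plus strand, chr3R:24805230-24805336 for polybromo on the minus strand, chr3R:9637582-9637701 for Scm on the minus strand, chr3R:15972968-15973088 for mor on the minus strand and chr3R:17718321-17718436 for osa on the minus strand. Capitals mark the DNA replication-related element (DRE, TATCGATA) and its core CGATA, which reads TATCG on the other strand. Counting both strands, CGATA occurred 7 times in the osa sequence, 3 times each in those of Caf1-55 and polybromo, 2 times each in those of kis and Scm, and 1 time in that of Kdm3. It was in neither the Bap60 nor the mor sequence. The copies that make up a full DRE, at Scm and osa, are read on both strands and count as 2.
Kdm3: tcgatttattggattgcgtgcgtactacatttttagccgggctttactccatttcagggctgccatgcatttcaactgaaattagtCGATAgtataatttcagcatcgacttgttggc
kis: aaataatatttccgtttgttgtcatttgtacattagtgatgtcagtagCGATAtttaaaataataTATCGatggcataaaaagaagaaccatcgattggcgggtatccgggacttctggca
Bap60: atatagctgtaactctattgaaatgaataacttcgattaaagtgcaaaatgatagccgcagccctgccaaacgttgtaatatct
Caf1-55: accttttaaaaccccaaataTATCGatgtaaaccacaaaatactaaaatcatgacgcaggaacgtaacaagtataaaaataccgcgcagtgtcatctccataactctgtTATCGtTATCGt
polybromo: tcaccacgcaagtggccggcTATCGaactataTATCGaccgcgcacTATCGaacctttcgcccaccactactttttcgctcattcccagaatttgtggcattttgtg
Scm: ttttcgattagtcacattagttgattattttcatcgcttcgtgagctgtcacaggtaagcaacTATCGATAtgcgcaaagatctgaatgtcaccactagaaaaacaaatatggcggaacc
mor: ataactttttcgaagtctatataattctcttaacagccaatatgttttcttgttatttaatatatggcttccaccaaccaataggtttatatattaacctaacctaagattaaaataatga
osa: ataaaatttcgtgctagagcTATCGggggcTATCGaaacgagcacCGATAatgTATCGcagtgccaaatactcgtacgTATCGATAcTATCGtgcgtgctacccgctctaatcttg

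The deposited dm6 peak lists held 30000 peaks for each library and for both libraries pooled. The optimal set, selected by the irreproducible discovery rate (IDR), held 6318. These were exactly the 6318 highest peaks of the pooled list, with the same ranks, so a rank here is a rank in both. Peak height is given by the signal value that the authors deposited. In the optimal set it ran from 99.8 to 7028 with a median of 238. Each list has its own scale, with maxima of 3089 in replicate 3 and 4003 in replicate 4, so ranks were used beside signals. Read totals were not analysed here and the depth is unknown. A gene is called bound where an optimal summit lay within 500 bp of any of its annotated transcript starts, and its highest such summit is given. Bound therefore means a called peak of this assay. The embryos' levels of the genes' RNA or protein were not analysed here.

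Most of the chromatin genes had Sry-delta at their start. Of the 42 members, 34 were bound (81.0%, exact Clopper-Pearson 95% interval 65.9% to 91.4%), against 5445 of 13945 protein-coding genes (39.0%, interval 38.2% to 39.9%). Such intervals cover counting over genes only. A summit of rank 1 to 1000 was found at 13 of the 42 members (31.0%), against 1437 protein-coding genes (10.3%). The bound members' peaks were close in median height to those of bound genes at large. The median signal was 399 against 386 and the median rank 2013 against 2068. Among bound genes, ranks 1 to 1000 were held by 38.2% of members, against 26.4% of protein-coding genes. Signals ranged from 102 at Su(z)2 to 5760 at Kdm3, and 19 of the 34 were above the median of bound protein-coding genes. In a second list of 56 other chromatin regulators, 50 were bound (89.3%, interval 78.1% to 96.0%), an interval that includes the members' share of 81.0%. Both lists were chosen with earlier results of these data known, so the likeness is not an independent check.

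**Figure D1:**
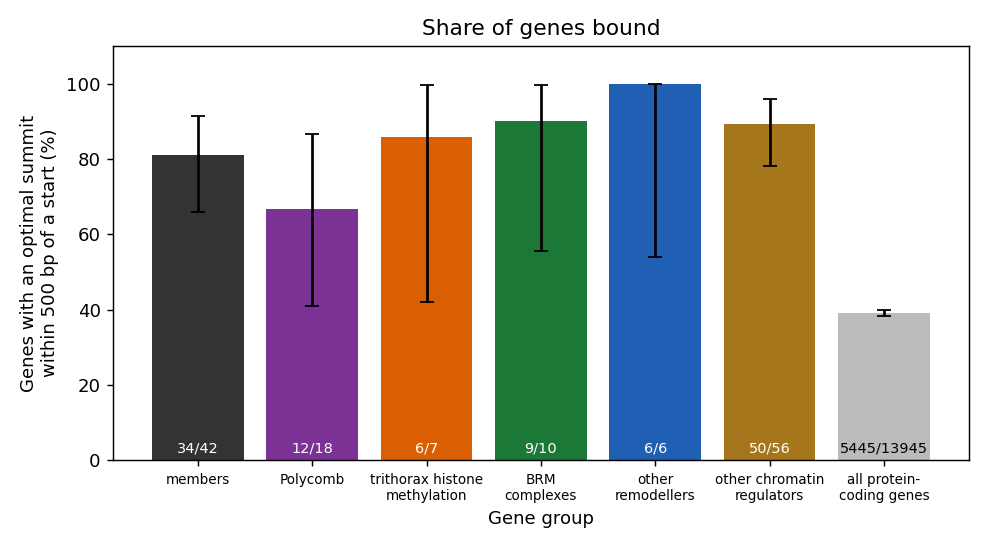
Share of genes (%, linear axis from 0) with an optimal summit within 500 bp of a start, for the members, 4 of their families, other chromatin regulators and all protein-coding genes. Bars show the share, error bars the exact 95% interval over genes, and the printed counts run from 34 of 42 members to 5445 of 13945 protein-coding genes. The family bars lie between 66.7% for Polycomb genes and 100% for other remodellers, with intervals that overlap each other.

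Of the Polycomb genes, 12 of 18 were bound (66.7%, interval 41.0% to 86.7%). The genes of PRC1, the Polycomb complex that reads methylated H3 and places ubiquitin on H2A, had 2 of 6 bound (33.3%, interval 4.33% to 77.7%), which is near the 39.0% of all protein-coding genes. Pc encodes the chromodomain subunit that binds H3 methylated at lysine 27, and its peak (3L, 21317863 to 21318316) had a signal of 394 in replicate 3 and 567 in replicate 4. Its optimal signal was 968 and its rank 888, with the summit 45 bp upstream of its only start. Su(z)2 encodes a RING finger protein, and its peak (2R, 12996273 to 12996756) was at 52.7 in replicate 3 and 48.9 in replicate 4. At an optimal signal of 102 and rank 6241 it was the weakest of all bound members and stood just inside the optimal set. Psc, the neighbouring paralogue of Su(z)2, had no optimal summit within 500 bp, although both lists of single libraries held a small peak there (50.6 in replicate 3 and 42.8 in replicate 4). In single libraries Psc and Su(z)2 were thus close in height, on either side of the limit.

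ph-p and ph-d, tandem copies that encode the SAM-domain protein Polyhomeotic, were both unbound under the 500 bp rule, but had very different peaks nearby. A strong optimal peak (X, 2137098 to 2137651) lay inside an intron of ph-p with its summit 511 bp from the nearest start, just beyond the window. Its signal was 1272 (rank 633), with 407 in replicate 3 and 871 in replicate 4. It lay 1005 bp inside the outermost start. At ph-d the nearest optimal summit was 11148 bp away, and the best pooled peak within 500 bp had a signal of 58.2 (rank 9566), with 33.5 in replicate 3 and 35.4 in replicate 4. The copies are similar in sequence, and how the authors treated reads that map to both is not given in the sources used here, so their separate values are uncertain. Sce encodes the RING protein that carries the ubiquitin ligase activity, and it was the only member with no pooled or replicate summit within 500 bp of its start. Its nearest optimal summit was 4564 bp away.

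PRC2, which methylates H3 at lysine 27, had more of its genes bound (5 of 7, counted without Caf1-55, against 39.0% of protein-coding genes). Their peaks were all modest, from 103 to 333 in optimal signal. Caf1-55, also a PRC2 subunit, was placed with the other remodellers and had a much higher signal of 2318. The catalytic subunit gene E(z) had a signal of 31.6 in replicate 3 and 70.6 in replicate 4. Its optimal signal of 103 (rank 6165) put it, with Su(z)2, at the lower edge of the set. Su(z)12, a zinc finger subunit needed for catalysis, had 49.0 in replicate 3 and 99.9 in replicate 4, and an optimal signal of 133 (rank 5087). Replicate 4 was the higher in both genes, by a log2 difference of 1.16 for E(z) and 1.03 for Su(z)12. The median over optimal peaks was 0.48, as each list has its own scale. Only brm had a larger difference than these genes among bound members.

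The accessory and WD40 subunits of PRC2 fell on both sides of the limit. Jarid2, an accessory subunit, had the highest signal of the complex with 147 in replicate 3, 178 in replicate 4 and 333 in the optimal set (rank 2385). esc encodes the WD40 subunit, and its peak, which also lies in an intron of Pde1c, reached 120 in replicate 3, 177 in replicate 4 and 300 in the optimal set (rank 2615). Its paralogue escl, which encodes a second version of the same subunit, was unbound, with a pooled peak of 31.6 (rank 16916) and an optimal summit no nearer than 2607 bp. jing, the fly relative of the PRC2 accessory factor AEBP2 of mammals, was bound at the innermost of its 3 starts (193 in the optimal set, rank 3781), 111683 bp inside the outermost one. Pcl, a PHD finger subunit, was unbound. Its best pooled peak within 500 bp, at 85.7 (rank 7096), was not far under the lowest optimal signal of 99.8.

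All 3 genes of PhoRC, the Polycomb complex that binds DNA in a sequence-specific way, were bound, against 39.0% of protein-coding genes. Signals across the complex were similar. Sfmbt, its MBT-repeat subunit, had 144 in replicate 3, 267 in replicate 4 and 395 in the optimal set (rank 2030). phol, one of its paired DNA-binding subunits, had 156 and 177 in replicates 3 and 4 and 326 in the optimal set (rank 2427). pho, the paralogue of phol on chromosome 4, had 105 and 178 in replicates 3 and 4 and 280 in the optimal set (rank 2759). Unlike esc and escl, the paralogues pho and phol were both bound, although pho had the most distant summit of any bound member, 365 bp upstream. Without the wider part of the window, at 250 bp, pho was the only member lost.

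Asx and Scm had the higher Polycomb peaks together with Pc. Asx encodes the partner of the H2A deubiquitinase Calypso and had a signal of 248 in replicate 3, 401 in replicate 4 and 638 in the optimal set (rank 1346), with 2 weaker summits in the same peak region. Scm, a SAM-domain protein that links PRC1 to other Polycomb complexes, had 1086 in replicate 3, 1129 in replicate 4 and 2201 in the optimal set (rank 220; 3R, 9637291 to 9637899). This was the strongest peak of the 12 bound Polycomb genes. It ranked 184 in replicate 3 and 275 in replicate 4. The Calypso gene is annotated as caly. Its nearest optimal summit lay 593 bp from the start, with a signal of 111, and counting it would leave 34 of 43 genes bound.

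Among the trithorax genes for histone methylation and demethylation, 6 of 7 were bound (85.7%, interval 42.1% to 99.6%), against 39.0% of protein-coding genes. Utx, which removes methyl groups from lysine 27 of H3, had the highest signal with 661 in replicate 3, 845 in replicate 4 and 1505 in the optimal set (rank 489; 2L, 10278602 to 10279158). A further peak at an internal start of Utx had a signal of 998 (rank 845). All 3 annotated starts of Utx had a summit within 500 bp.

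The methyltransferase genes differed from each other. trr, which encodes a monomethylase of lysine 4 of H3, had 332 in replicate 3, 338 in replicate 4 and 666 in the optimal set (rank 1296). trx, the founding gene of the group, had 167 and 231 in replicates 3 and 4 and 395 in the optimal set (rank 2031). Set1, which encodes the main enzyme for di- and trimethylation of lysine 4, was the unbound gene of this group, with a pooled peak of 63.4 (rank 8941) that was 12.9 in replicate 3 and 46.3 in replicate 4. These enzymes share the subunits encoded by ash2 and wds. ash2 had 139 and 219 in replicates 3 and 4 and 362 in the optimal set (rank 2195), and wds had 82.4 and 113 in replicates 3 and 4 and 182 in the optimal set (rank 3951). ash1, a methyltransferase for lysine 36 of H3, had 133 and 168 in replicates 3 and 4 and 304 in the optimal set (rank 2588). A much stronger summit (signal 1676, rank 405) lay just past the other end of ash1, 8139 bp from its start and nearest to the start of CG14100.

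The BRM complexes, which remodel nucleosomes in the SWI/SNF manner, had 9 of 10 genes bound (90.0%, interval 55.5% to 99.7%), against 39.0% of protein-coding genes. Of the 10, 6 ranked within the first 1000, against 10.3% of protein-coding genes. The core gene Bap55, an actin-related protein, had 1448 in replicate 3, 1577 in replicate 4 and 3007 in the optimal set (rank 101). Bap60, another core subunit, was close to it with 1364 in replicate 3, 1620 in replicate 4 and 2971 in the optimal set (rank 108). mor, a scaffold subunit related to SMARCC proteins, had 864 and 1186 in replicates 3 and 4 and 2023 in the optimal set (rank 268). These 3 genes were high in both libraries. The gene for the ATPase itself, brm, was much lower, at 96.1 in replicate 3, 241 in replicate 4 and 338 in the optimal set (rank 2354). Its log2 difference between the libraries (1.33) was the widest of all 34 bound members. Bap111, an HMG-box subunit, was the lowest bound gene of the family with 58.7 in replicate 3, 85.4 in replicate 4 and 139 in the optimal set (rank 4893).

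Snr1, the core gene related to human SMARCB1, stood just outside the optimal set. Its pooled peak had a signal of 98.7 (rank 6372), against the lowest optimal signal of 99.8, and measured 33.0 in replicate 3 and 74.5 in replicate 4. Taking only replicate 4, with as many of its top peaks as the optimal set holds, Snr1 counted as bound.

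Signature subunits separate the BAP and PBAP forms of the complex, and genes of both forms were bound. osa, which marks BAP, had 691 in replicate 3, 1018 in replicate 4 and 1714 in the optimal set (rank 391; 3R, 17717908 to 17719118), with a second summit of 892 in the same region. polybromo, a bromodomain protein that marks PBAP, had 1144 in replicate 3, 1141 in replicate 4 and 2268 in the optimal set (rank 207). The PBAP gene Bap170 had 423 and 503 in replicates 3 and 4 and 915 in the optimal set (rank 953), and the PBAP gene e(y)3 had 125 in each replicate and 237 in the optimal set (rank 3187). Of the 3 PBAP genes, polybromo was high and e(y)3 low in both libraries.

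All 6 genes of other remodellers were bound (interval 54.1% to 100%), against 39.0% of protein-coding genes. kis, a CHD7-type ATPase of the trithorax group, had 1594 in replicate 3, 1871 in replicate 4 and 3434 in the optimal set (rank 61; 2L, 250511 to 251405). Caf1-55, the histone-binding WD40 subunit shared by PRC2, NURF and nucleosome assembly complexes, had 1093 in replicate 3, 1227 in replicate 4 and 2318 in the optimal set (rank 196). As Caf1-55 belongs to PRC2 as well, counting it with the Polycomb genes would give 13 bound in place of 12.

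Genes of the ISWI complexes had peaks of very different heights. Iswi, the ATPase, had 944 and 1031 in replicates 3 and 4 and 1952 in the optimal set (rank 295). Acf, the large subunit of ACF and CHRAC, had 353 and 480 in replicates 3 and 4 and 823 in the optimal set (rank 1084). Nurf-38, a pyrophosphatase found in NURF, had 77.4 and 116 in replicates 3 and 4 and 188 in the optimal set (rank 3865). The peak of Iswi was higher than those of Acf and Nurf-38 and lower than that of Caf1-55, which is also a NURF subunit. Mi-2, the ATPase of the deacetylating NuRD complex, had 176 and 220 in replicates 3 and 4 and 404 in the optimal set (rank 1996).

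The highest signal of all members was at Kdm3, which encodes a demethylase for lysine 9 of H3. It had 2612 in replicate 3 and 3189 in replicate 4, rank 7 in each, and 5760 in the optimal set, where it ranked 6 (3R, 9515544 to 9516416). The summit lay 28 bp upstream of the Kdm3 start and within 500 bp of the starts of CG8176 and, on the opposite strand, mRpL47, a mitochondrial ribosomal protein gene. The signal cannot be assigned to 1 of these 3 genes.

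**Figure D2:**
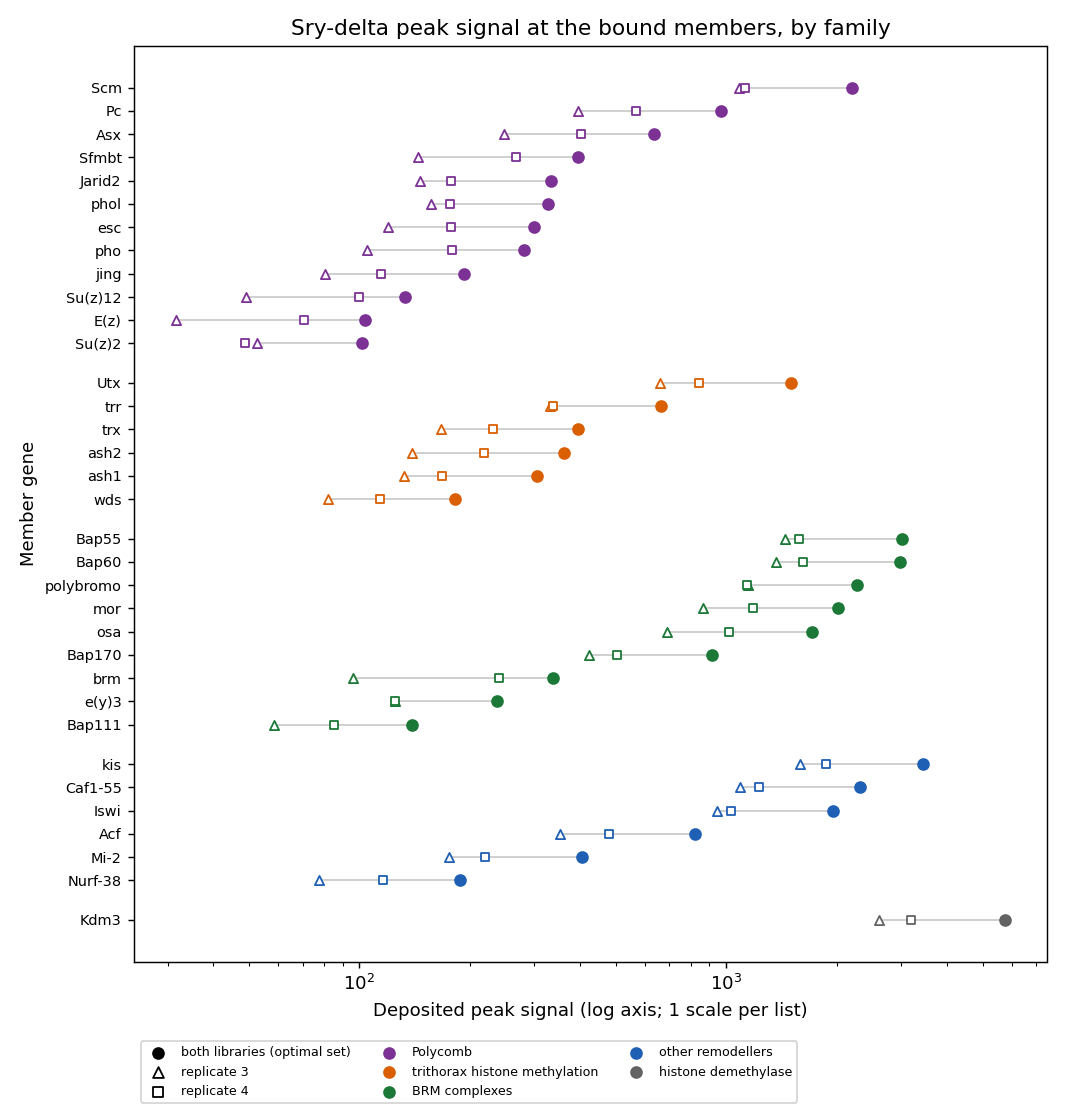
Deposited peak signal (log axis) of the 34 bound members, grouped by family and sorted by the optimal signal. Filled circles are the optimal set, open triangles replicate 3 and open squares replicate 4, each list on its own scale. Kdm3 (5760), kis (3434) and Bap55 (3007) are highest, and Su(z)2 (102) and E(z) (103) are lowest.

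Set side by side, the families had different medians but overlapping ranges. The median optimal signal of the bound genes was 1714 for the BRM complexes, 1388 for other remodellers, 378 for trithorax histone methylation genes and 313 for Polycomb genes, against 386 for all bound protein-coding genes. The median ranks were 391, 689.5, 2113 and 2521 in the same order of families, against 2068. BRM genes ran from rank 101 to 4893, other remodellers from 61 to 3865, trithorax genes from 489 to 3951 and Polycomb genes from 220 to 6241. Within Polycomb, PRC2 had a median signal of 193. No test of a difference between families was made, and families of 6 to 12 bound genes fix such medians only loosely. A summit was counted for the member also where another gene's start was nearer, as at Bap55, Bap60, Bap111, Acf, Mi-2, wds and Jarid2.

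**Figure D3:**
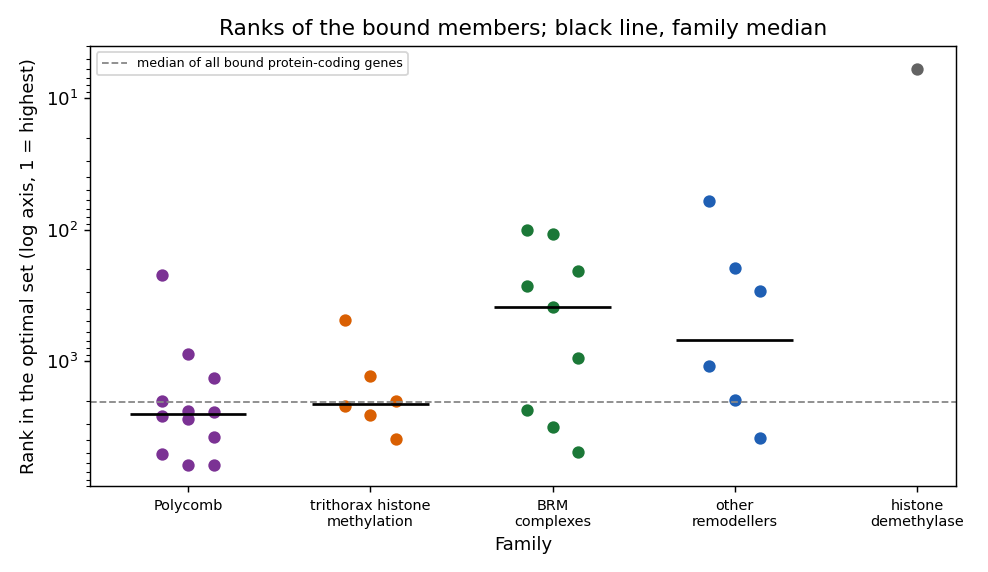
Rank in the optimal set (log axis, 1 is the highest signal) of each bound member by family, with a black line at the family median and a dashed line at the median of all bound protein-coding genes (2068). The BRM complexes have 6 and the other remodellers 3 of their genes at ranks 1 to 1000, and the Polycomb genes 2. Of all protein-coding genes, 10.3% have a summit at these ranks.

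Most of the 8 unbound members had entries in the longer lists, below the optimal limit. In the pooled list of 30000 peaks, 41 of the 42 members had a summit within 500 bp, against 58.1% of protein-coding genes. The same count of 41 was found in replicate 3 and in replicate 4, for which the share of protein-coding genes was not computed. Sce was the exception in each list. The best pooled signals at the other 7 were 98.7 for Snr1, 92.0 for ph-p, 85.7 for Pcl, 72.4 for Psc, 63.4 for Set1, 58.2 for ph-d and 31.6 for escl. The pooled list was deposited as peaks and background for input to IDR. Its median signal was 35.5 and its lowest 18.2. Which of these entries are more than background was not determined. Among bound members, those just inside the limit of 99.8 were Su(z)2 (102), E(z) (103), Su(z)12 (133) and Bap111 (139).

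The summits sat close to the starts and mostly upstream. The median distance was 59 bp among the 34 bound members, against 66 bp for all bound protein-coding genes, and 29 of 34 summits (85.3%) were upstream, against 88.1%. The 5 downstream summits were those of Su(z)2, E(z), Su(z)12, phol and Nurf-38, all in an annotated 5′ untranslated region. Thus 4 of the 12 bound Polycomb genes and 1 of the other 22 bound members had their highest summit downstream of the nearest start. phol also had a second summit of 198 on the upstream side, 49 bp from its start.

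**Figure D4:**
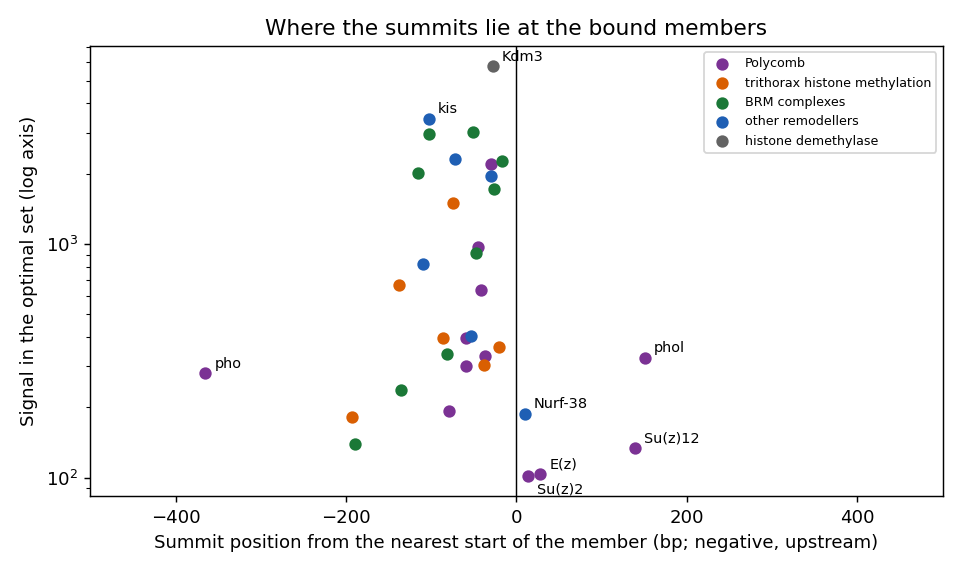
Position of the highest summit of each bound member relative to its nearest start (x axis, bp, negative is upstream) against optimal signal (log axis). Most points lie upstream and close to the start, pho lies 365 bp upstream, and the downstream points are phol, Su(z)12, E(z), Su(z)2 and Nurf-38.

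Many of these promoters are shared with a neighbour, so the peak could belong to either gene. An opposite-strand protein-coding start lay within 500 bp of the summit at 22 of 34 bound members (64.7%), against 56.3% of bound protein-coding genes. The partners included Lhr at Bap55, CG12096 at Bap60, Hel89B at mor, Arl1 at brm, Taf6 at ash1, Prp3 at Mi-2, mRpL16 at trr, Cnep1r2 at E(z) and Pfdn6 at Su(z)12. Another gene's start was nearer to the summit than the member's own at 7 of 34 (20.6%), against 28.4% of bound protein-coding genes. These were Jarid2 (Uch-L5), wds (CG13760), Bap60 (CG12096), Bap111 (fh), Bap55 (Lhr), Acf (Mccc1) and Mi-2 (Prp3). By contrast, no opposite-strand partner was found at kis, Scm, polybromo, osa, Utx, Pc, trx, esc, pho, jing, Nurf-38 or Su(z)2.

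The members have 65 annotated start sites in all, and 41 of them had a summit within 500 bp. Of the 16 members with several starts, 5 had a summit at every start, 7 at some and 4 at none. The same counts were not made over all protein-coding genes, so they describe the members only. kis was bound at its outermost start, which 5 transcripts use, and not at the inner one, whose nearest optimal summit was 1604 bp away. Mi-2 likewise was bound at the outermost start and not at the inner one, 8367 bp from any optimal summit. jing was the reverse, bound at its innermost start and not at its outer ones. With only the outermost start of each gene, jing was therefore the only member lost.

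Weaker summits also lay inside the larger genes. Away from every protein-coding start by more than 500 bp, 8 of 42 members (19.0%) had a summit within the gene, against 4.98% of protein-coding genes. Length moved with this count, at a median of 5833 bp for members against 2166 bp for protein-coding genes, and its part in the result was not tested. There were 19 such summits, 4 in Mi-2, 3 each in kis, trx and ph-p, 2 each in osa and jing, and 1 each in Psc and Acf. Of the Mi-2 summits, 3 also lay in introns of Su(Tpl), and these 3 were nearer to a Su(Tpl) start than to any other protein-coding start. The other lay in a 5′ untranslated region of Su(Tpl) and was nearest to the inner Mi-2 start, 8367 bp away. After the ph-p summit of 1272, the highest was in an intron of osa, 13934 bp from its start, with 175 in replicate 3, 463 in replicate 4 and 637 in the optimal set (rank 1347). Psc, unbound at its starts, had an intronic summit of 293 (rank 2660) 5075 bp from the nearest one. The intronic summits of kis and trx were low, from 114 to 213 in optimal signal.

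The motif content of the members' summits was much like that of other promoter peaks. Within 100 bp of the summit, the DRE core CGATA was found at 22 of 34 bound members (64.7%), against 65.0% of the 3844 distinct summits assigned to bound protein-coding genes, 53.6% of all optimal summits and 39.4% of all protein-coding start windows of the same length. The full DRE, which contains the core, was found at 7 (20.6%), against 21.0%, 15.0% and 7.84% for the same 3 sets. The 7 were Sfmbt, Scm, mor, osa, Bap170, Iswi and Nurf-38. By family the core was at 4 of 12 Polycomb genes, 5 of 6 trithorax genes, 6 of 9 BRM genes, 6 of 6 other remodellers and Kdm3. Its share was higher at high ranks. All 13 members of rank 1 to 1000 had it, against 89.9% of protein-coding summits of those ranks, and 9 of the 21 lower ones had it (42.9%), against 56.8%. In windows of the same length at the outermost start of the 8 unbound members, neither CGATA nor the full DRE occurred. Over all protein-coding start windows the shares were 39.4% and 7.84%, and 8 windows are few. The ph-p window was centred 1005 bp from its strong summit. These matches are letters in a window, and binding of any factor to them was not measured.

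Each of the other motifs was at 11 or fewer of the 34 bound members. The core of Motif 1, GGTCACACT, a promoter element, was at ash1 and Mi-2 (2 of 34, 5.88%), against 9.96% of protein-coding summits. A GAGAGAG repeat of the type bound by GAGA factor was at Su(z)2 alone (1 of 34), against 2.58%. The short core of the Pho site, GCCAT, was at 11 of 34 (32.4%), against 30.9%, and 31.8% of all protein-coding start windows hold it. The longer GCCATTTT was at none of the 34, against 2.50%, and neither was the Zelda site CAGGTAG, against 0.598%. All were sought on both strands. At the outermost starts of the unbound members, GCCAT was found at ph-p, escl, Pcl and Snr1. Motif 1 was at Sce and Pcl, GAGAGAG at Psc and GCCATTTT at Pcl.

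Few summits of these genes had the consensus bound in vitro by Sry-delta. Matches with up to 2 mismatches were found at the summits of pho, kis and Bap55, within 100 bp (3 of 34, 8.82%), against 8.53% of protein-coding summits, and none had 1 mismatch or fewer, against 1.69%. The pho and kis matches are printed as examples, a choice made after their values were seen. The Bap55 match has as many mismatches, lies 34 bp from its summit and is not shown. They lie at chr4:1182015-1182027 on the minus strand, 28 bp from the pho summit, and at chr2L:250841-250853 on the plus strand, 79 bp from the kis summit. Capitals mark the bases that match the consensus.
pho: TTAacGATGGGAA
kis: CTAGAGcTGGGAc

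The libraries ranked the bound members alike. Over the 34 members the log2 ratio of replicate 4 over replicate 3 was 0.40 at the median, with an SD of 0.33, against 0.48 and 0.65 over the 6296 optimal peaks with a peak in both lists. The members give only their highest summit near a start. The 6296 peaks also include secondary summits and peaks away from starts, so the spreads are not compared like for like. Replicate 4 was the higher in 32 of 34, and the exceptions were Su(z)2 (log2 ratio −0.11) and polybromo (−0.00). As each list has its own scale, this shift says nothing of binding. Near the top, Kdm3 had rank 7 in each library and kis ranks 54 in replicate 3 and 67 in replicate 4. Near the limit the ranks lay farther apart, with E(z) at 8598 in replicate 3 and 5839 in replicate 4, and Su(z)2 at 5466 in replicate 3 and 7716 in replicate 4. The optimal set was made by IDR from these same libraries, so the agreement is not an independent check. As the set equals the 6318 highest pooled peaks, a single peak in it need not rank alike in both libraries.

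**Figure D5:**
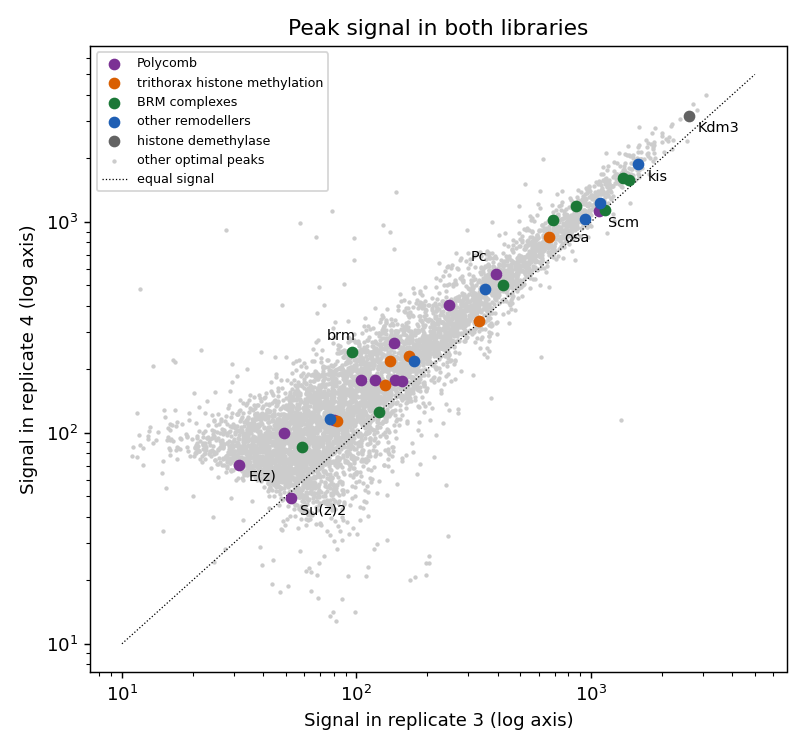
Peak signal in replicate 3 (x, log axis) against replicate 4 (y, log axis) for the bound members, coloured by family, and other optimal peaks in grey, with a dotted line of equal signal. Members run along the upper side of the line from E(z) (31.6 and 70.6) to Kdm3 (2612 and 3189), and brm (96.1 and 241) and E(z) lie farthest above it.

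The list of other chromatin regulators, chosen with earlier results of these data known, sets the members beside their partners. Of these 56 genes, 15 had a summit of rank 1 to 1000 (26.8%), against 10.3% of protein-coding genes. The median signal of the bound regulators was 374 (median rank 2126.5). Their 8 highest were fs(1)h, a bromodomain protein (3208, rank 76), simj, a NuRD subunit (3113, rank 86), Ptip, a partner of the Trr complex (3109, rank 87), l(3)73Ah, a RING finger relative of Psc (2555, rank 153), Rbbp5, a subunit of the lysine 4 methylating complexes (1790, rank 365), skd, a Mediator kinase module subunit (1753, rank 383), Ino80, a remodeller ATPase (1716, rank 390), and E(Pc), a Tip60 complex subunit (1688, rank 398). The summits given for fs(1)h, Rbbp5, skd and Ino80 were nearer to the starts of mys (60 bp), eRF1 (46 bp), Pdss2 (10 bp) and Aptx (91 bp), in that order, so these signals cannot be assigned to 1 gene. Kdm3 and kis ranked above all of the 8. The 6 without a summit were corto, crm, Dsp1, HDAC1, Kdm4A and tou. All 12 further genes of the lysine 4 and other histone methylating complexes were bound, beside 6 of 7 members of that kind, and 9 of 12 Polycomb accessory and recruiter genes, beside 12 of 18 Polycomb members.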

How the data were processed

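The data are ChIP-seq peak lists of GFP-tagged Sry-delta from 2 libraries of whole embryos. Per the README texts deposited with the samples, each replicate list came from that library and a control alignment, the pooled list from both libraries, and the optimal set from these by IDR. No source used here names the aligner, the peak caller or the IDR threshold. The deposited signal value of each peak, from the authors, has no stated normalization. The lists in build dm3 were not used. Summits were placed on Ensembl release 115 (FlyBase 6.54) transcript starts and on the Release 6 sequence, with 1-based coordinates. Replicate values are those of the peak that overlaps the optimal one by at least 1 bp with the nearest summit. Motifs were sought within 100 bp of summits. Nothing was tested for significance. Intervals are Clopper-Pearson at 95%. Counting steps were tested on simulated data. Python 3.11.15, pandas 2.3.3, scipy 1.17.1 and matplotlib 3.10.9 were used. Members and lists were chosen with earlier results of these data known. All members are named, with the 8 highest other regulators and those unbound. Printed sequences were to be 121 bases and were shortened where they entered untranslated regions. The symbol dsp1 was matched as Dsp1.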

Additional observations from a re-analysis of the deposited data

How the results depend on the processing

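Depth is unknown, so what a weaker peak could have shown cannot be stated. With 2 libraries, the error of a single gene rests on 1 difference between replicates. Over the alternatives tried, 77 of 78 values stayed close to those reported (counts within 1.5 times). This limit is wide, and for some counts closeness was fixed in advance, as bound members could rise only from 34 to 42. Bound Polycomb genes at 8 or 17, against 12, also passed as close. Counts and medians have no direction, so none could reverse. The background share was not compared in this way: it was 24.7% over all 23973 annotated genes (5918 bound), against 39.0% of protein-coding genes. The median signal at bound members was 869 with the optimal peaks above their median signal, against 399 with all, since the weaker peaks were left out by construction. The median was not computed for single libraries, whose signals have their own scale. Bound members numbered 33 with a 250 bp window (without pho), 35 with 1000 bp or with any base of the peak (with ph-p), 33 with outermost starts (without jing), 34 with 1 summit per region, 26 with the peaks above the median signal and 41 with all pooled peaks. Leaving out a replicate gave 35 both times. Without replicate 3, Snr1 and ph-p were gained and Su(z)2 was lost. Without replicate 4, Psc and ph-p were gained and E(z) was lost. Bound Polycomb genes ranged from 8 to 17 over these alternatives, BRM genes from 7 to 10 and all protein-coding genes from 3695 to 8098. Counting calypso as caly, an alternative added after seeing the data, left 34 bound members, and leaving out dsp1 left 50 other regulators. No paired analysis was possible because the libraries form 1 group and no test was run.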
